A study of Mus musculus with 24 samples.

Results

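The regions described here are 570 stretches of mouse limb bud chromatin that were called as H3K27ac peaks in both Sox9-deficient libraries and in neither control library. They were chosen by merging the overlapping peaks of 4 peak lists into 49367 union regions and keeping those touched by at least 1 peak of each Sox9-deficient list and by none of either control list. The 570 regions were 1.15% of the union, so the choice rests on the presence of peaks in the same libraries that are described below. Their number, scores and widths are therefore a description, and no test was made on them.

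H3K27ac, acetylation of lysine 27 of histone H3, marks promoters in use and active enhancers, the distal elements that raise transcription of a gene from a distance. SOX9 is the transcription factor that mesenchymal cells of the limb bud need in order to become chondrocytes, and it binds enhancers of cartilage matrix genes. A list of H3K27ac peaks records where the mark passed the limit of a peak caller and not how the mark varies below that limit.

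The study profiled histone marks in mouse limb buds by chromatin immunoprecipitation and sequencing, and the 4 libraries used here are those for H3K27ac. They came from control embryos at embryonic day E11.5, Sox9null embryos at E11.5, control embryos at E12.5 and Sox9cKO embryos at E12.5. Each group had 1 library, so no difference between groups could be tested, and stage and kind of Sox9 deficiency cannot be told apart. The alleles, the Cre driver, the strain, the number of embryos in a library and whether forelimbs and hindlimbs were pooled were not found in the sources used here.

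There were 36045 peaks in the control list at E11.5 and 32821 at E12.5, 28419 in the list labelled Sox9null, and 36937 in that labelled Sox9cKO. The depth of sequencing is unknown, and median peak width ran from 1141 bp in the E11.5 control to 1778 bp in the list labelled Sox9null. The 2 Sox9-deficient lists carry file labels that are swapped against the titles of their samples, and each is called here by its title. Among regions found in just 1 control list and 1 deficient list, the E11.5 control shared 3186 with the list labelled Sox9cKO and 312 with the list labelled Sox9null, and the E12.5 control shared 972 and 1819. The choice of the 570 regions needs both deficient lists and does not depend on which is which. Of 11 genes that mark limb mesenchyme, 10 had a peak in the gene or within 20 kb in the list labelled Sox9null, where Tbx5 had none, and all 11 had one in each of the other lists. In whole limb buds, fewer cells with the mark and a weaker mark per cell cannot be told apart.

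Few of the 570 regions lay at promoters, and those that did are the ones whose DNA can be shown, because promoter sequences were at hand and the genome was not. A total of 24 regions (4.21%, Wilson 95% interval 2.85 to 6.19) touched 29 of the 32851 RefSeq promoter windows, each running from 250 bases before to 50 bases after a gene's start. Over the union, 22.9% of regions touched such a window, and over the 19792 regions present in all 4 lists 45.8% did. The mirror class, regions in both control lists and in neither deficient list, numbered 809 (1.64% of the union), and 5.93% of them touched a window. Of the 29 windows, 15 (51.7%) belonged to protein-coding genes and 14 to noncoding ones. Protein-coding genes held 55.2% of the windows touched by the mirror class, 83.8% of those touched by regions in all 4 lists and 64.7% of all windows. Intervals on shares here cover counting error over regions and not the spread between embryos.

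The promoters below, from RefSeq (GRCm38.p6), are examples picked for the features named here and do not represent the 570 regions as a whole. Gpr176, an orphan G protein-coupled receptor, had the best scored region at a promoter. Rasef, a small GTPase of the Rab family, and Adgrf5, an adhesion G protein-coupled receptor, had no control peak in the gene or within 20 kb. Lrrc15, a membrane protein with leucine-rich repeats, lay in the longest run of regions. Rdh5, a retinol dehydrogenase, Rsph14, a radial spoke protein of motile cilia in other organisms, and Morrbid, a long noncoding RNA that lowers Bcl2l11 expression in myeloid cells, carried SOX core letters. By the mean of their score percentiles in both deficient lists, the regions at Rdh5, Rsph14 and Morrbid ranked 488, 552 and 140 of the 570. The region at Rdh5 lay 254 bp from a control peak. Capitals mark the SOX cores ACAAAG and ACAATG, the GATA core AGATAA, the GC box GGGCGG and the CCAAT box, on either strand.
Gpr176, chr2:118373370-118373669, minus strand: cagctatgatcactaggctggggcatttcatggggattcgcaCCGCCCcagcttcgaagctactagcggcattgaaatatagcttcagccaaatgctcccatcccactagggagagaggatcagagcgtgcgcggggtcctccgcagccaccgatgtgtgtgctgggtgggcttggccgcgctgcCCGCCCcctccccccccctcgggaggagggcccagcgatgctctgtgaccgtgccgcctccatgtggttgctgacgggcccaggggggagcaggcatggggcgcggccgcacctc
Rasef, chr4:73790553-73790852, minus strand: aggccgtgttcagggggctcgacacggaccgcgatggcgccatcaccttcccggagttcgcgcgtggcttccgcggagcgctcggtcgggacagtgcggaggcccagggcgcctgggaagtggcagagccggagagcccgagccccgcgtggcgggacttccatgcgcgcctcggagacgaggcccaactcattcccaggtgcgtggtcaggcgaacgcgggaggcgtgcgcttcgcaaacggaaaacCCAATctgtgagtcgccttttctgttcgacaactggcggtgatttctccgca
Adgrf5, chr17:43360181-43360480, plus strand: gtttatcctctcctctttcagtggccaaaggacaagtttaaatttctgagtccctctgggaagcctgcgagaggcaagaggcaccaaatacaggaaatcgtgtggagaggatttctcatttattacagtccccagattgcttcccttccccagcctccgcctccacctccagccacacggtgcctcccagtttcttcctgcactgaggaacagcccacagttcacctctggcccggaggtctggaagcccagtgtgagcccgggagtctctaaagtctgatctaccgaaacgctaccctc
Lrrc15, chr16:30283205-30283504, minus strand: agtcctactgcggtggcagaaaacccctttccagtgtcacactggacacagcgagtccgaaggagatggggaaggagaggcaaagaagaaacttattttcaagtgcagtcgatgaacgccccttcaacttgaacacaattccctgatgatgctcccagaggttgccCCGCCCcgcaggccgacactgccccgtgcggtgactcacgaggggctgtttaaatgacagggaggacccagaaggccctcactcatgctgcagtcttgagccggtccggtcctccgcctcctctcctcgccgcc
Rdh5, chr10:128919248-128919547, minus strand: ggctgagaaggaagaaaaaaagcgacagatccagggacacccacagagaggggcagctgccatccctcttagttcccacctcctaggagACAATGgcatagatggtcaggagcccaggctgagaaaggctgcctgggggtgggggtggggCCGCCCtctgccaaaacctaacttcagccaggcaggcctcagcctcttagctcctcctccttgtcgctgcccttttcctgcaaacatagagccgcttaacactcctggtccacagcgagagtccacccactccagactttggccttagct
Rsph14, chr10:75032504-75032803, minus strand: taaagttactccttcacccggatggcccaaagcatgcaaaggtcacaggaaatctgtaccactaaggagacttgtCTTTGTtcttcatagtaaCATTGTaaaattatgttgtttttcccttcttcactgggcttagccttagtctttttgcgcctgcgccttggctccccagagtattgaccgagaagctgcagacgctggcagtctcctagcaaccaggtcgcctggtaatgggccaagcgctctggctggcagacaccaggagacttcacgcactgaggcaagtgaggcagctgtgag
Morrbid, chr2:128429302-128429601, minus strand: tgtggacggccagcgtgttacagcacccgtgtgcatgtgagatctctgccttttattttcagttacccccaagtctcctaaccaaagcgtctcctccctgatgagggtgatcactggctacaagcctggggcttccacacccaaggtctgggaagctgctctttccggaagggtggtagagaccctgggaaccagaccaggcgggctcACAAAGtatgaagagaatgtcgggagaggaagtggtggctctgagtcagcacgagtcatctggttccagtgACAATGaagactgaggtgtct

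These promoters differed among themselves in base composition. The ratio of observed to expected CpG was 1.12 for Rasef, 0.624 for Lrrc15 and 0.606 for Gpr176, and it was 0.410 for Rsph14, 0.373 for Adgrf5, 0.360 for Morrbid and 0.197 for Rdh5. Over the 29 windows the median was 0.360, near that of the 58 windows touched by regions in both control lists only (0.372) and of all promoters (0.384). The 12734 windows touched by regions of all 4 lists had a median of 0.781. The windows in the 570 regions were thus poorer in CpG than promoters marked in every list, and a ratio above 0.6 was found in 6 of the 29 (20.7%) against 74.1% there.

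The letters searched were found in these windows at shares that can be set beside all promoters. ACAAAG stood in 7 of the 29 windows (24.1%) and in 18.7% of all promoters, and ACAATG in 5 (17.2%) and 12.6%. In windows of the mirror class the shares were 10.3% and 12.1%. Promoters that no union region touched had 23.1% and 17.3%, near the shares of the 29 windows. Both SOX cores were present in the windows of Morrbid, Rsph14 and 8430415O14Rik. AGATAA stood in 3 windows (10.3%; all promoters 11.2%), GGGCGG in 8 (27.6%; 35.7%), CCAAT in 7 (24.1%; 37.4%) and the E-box CANNTG in 21 (72.4%; 72.3%). The windows are few, and Rsph14, Gm32898 and Gm36443 contribute 2 each, so 1 window more or less moves a share by several percentage points. Those of Rsph14 overlap and hold the same ACAAAG and ACAATG matches. The windows of D830030K20Rik and Gm38690 also overlap and share a GGGCGG match. A match of these letters is a description of the sequence and not a binding site.

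The scores of the 570 regions were low in both lists. The score is the authors' own value for each peak, its scale was not found in the sources used here, and it serves only to rank peaks within a list. The regions' best peaks scored from 50.1 to 262.6 (median 69.0) in the list labelled Sox9null, and from 50.2 to 357 (median 80.7) in that labelled Sox9cKO. As percentiles within each list the medians were 13.1 and 24.1. No region passed percentile 54.0 in the list labelled Sox9null or 61.2 in the list labelled Sox9cKO. A score under 60, close to the lowest deposited value of 50.01, was held by 159 regions (27.9%) in the first list and 121 (21.2%) in the second, and by 40 regions in both. Over all peaks, the share with a score under 60 was 7.17% in the list labelled Sox9null and 11.48% in that labelled Sox9cKO. In the same order, a score under 100 was held by 79.3% and 67.5% of the regions, against 26.2% and 32.4% of all peaks. A score of 100 or more in both lists was held by 45 regions (7.89%).

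**Figure D1:**
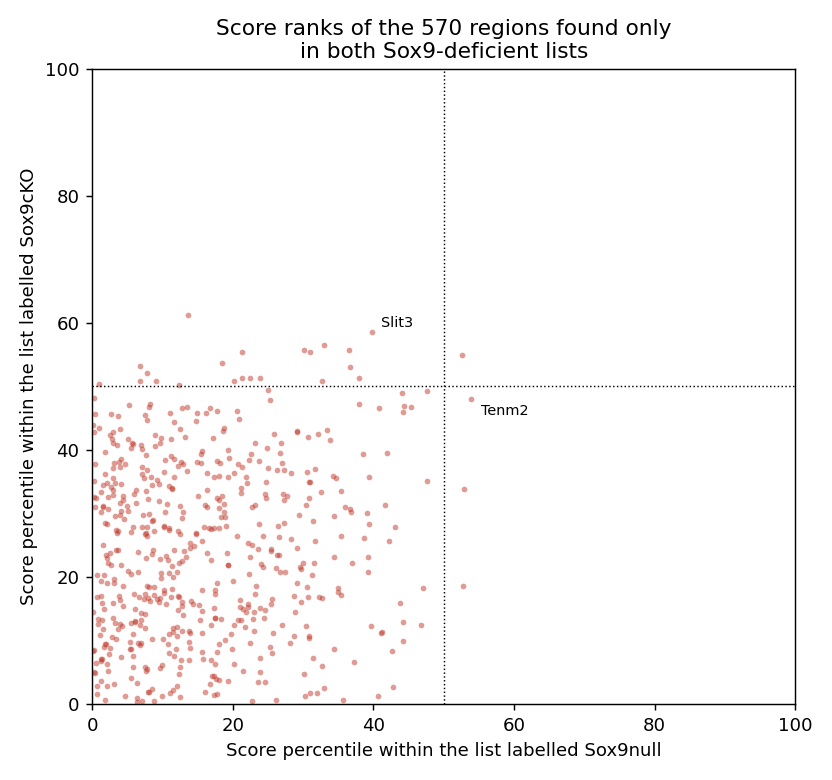
Score percentile of each of the 570 regions within the list labelled Sox9null (horizontal axis) and within the list labelled Sox9cKO (vertical axis), with dotted lines at percentile 50 and 2 of the 3 regions of highest mean percentile named by their nearest gene. The points fill the lower left, 4 regions pass percentile 50 in the first list and 22 in the second, and 1 region passes it in both.

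The rank of a region in one deficient list said little about its rank in the other. Spearman's rho between the percentiles was 0.0859 over the 570 regions (Pearson's r 0.111) and 0.839 over the 19792 regions of all 4 lists (r 0.770). The mirror class gave 0.0850 between the control lists over 809 regions (r 0.114), with median percentiles of 21.99 at E11.5 and 20.9 at E12.5. Both small classes are limited to low ranks by the way they are chosen, and regions are not independent samples. The percentile was higher in the list labelled Sox9cKO in 394 regions (69.1%), and the peak was wider in the list labelled Sox9null in 423 (74.2%). Over whole lists, median peak width was 1778 bp in that labelled Sox9null and 1332 bp in that labelled Sox9cKO. Median percentiles in the same order were 64.5 and 72.7 in regions of all 4 lists. With both deficient lists and just the E11.5 control they were 17.2 and 40.8, and with just the E12.5 control 30.2 and 29.7.

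Most of the regions were single peaks whose calls overlapped well. Of the 570, 558 (97.9%) joined 1 peak of each deficient list. The regions were 741 to 3176 bp wide with a median of 1302 bp. The part covered by both lists had a median of 61.4% of the region, it was at least 50% in 401 regions (70.4%), and it was under 10% in 20 regions, where the 2 peaks met at their edges. In the mirror class 437 of 809 regions (54.0%) had at least 50% covered by both lists.

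The region chr11:38828218-38830684 (mm10) scored 263 in the list labelled Sox9null and 179.7 in that labelled Sox9cKO, an order kept for all pairs of scores that follow, and stood alone in a gene-poor stretch. Tenm2, a teneurin that spans the membrane and acts in cell contacts, was the nearest gene at 1591 kb, and the nearest control peak was 758 kb away, the largest such gap of the 570 regions. The region chr11:35275210-35277586 inside the body of Slit3, a secreted ligand of ROBO receptors, scored 155.04 and 306 and lay 760 bp from a control peak. Peaks over Slit3 and 20 kb on each side covered 34.4, 65.4, 62.5 and 50.3 kb (E11.5 control, E12.5 control, Sox9null list, then Sox9cKO list, the order used below for covered length). The deficient lengths include the regions themselves, which the rule keeps out of the controls. Without the peaks that make up the regions, the lists labelled Sox9null and Sox9cKO covered 60.6 and 47.9 kb at Slit3, between the controls.

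Among the 15 best scored regions, 2 of the nearest genes were in the lists of limb patterning and chondrogenic genes described further on, Fmn1 and Sox11. A region inside Fmn1, the formin gene whose introns hold limb enhancers of Grem1, scored 189 and 169 (chr2:113574467-113576869), and another inside the same gene scored 59.8 and 88.8. At Fmn1 peaks covered 11.1, 6.51, 15.01 and 16.4 kb, and 11.6 and 13.8 kb in the deficient lists without the regions. Both of the latter values were above both controls, the first of them close to the E11.5 control. A region 47.6 kb from Sox11, a SOXC factor of limb mesenchyme, scored 145.65 and 209.9 (chr12:27390277-27392548). At Sox11 itself the lists hardly differed, with 9.53, 9.82, 9.79 and 10.3 kb. A region inside Scube1, which encodes a secreted and membrane-bound protein with EGF-like repeats, scored 139 and 262.

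Further high ranks belonged to regions near genes of other kinds. A region 174.7 kb from Ctso, a cathepsin, scored 206 and 190.4, and one at the promoter of Gpr176 scored 180.7 and 188. A region inside Lrrfip1 scored 183 and 170.05 but ended 76 bp from a control peak. Regions near Enc1, an actin-binding kelch protein, Hibadh, an enzyme of valine breakdown, Tmem44, Rtl1, an imprinted retrotransposon-derived gene, Dynlrb2, a dynein light chain, and Uaca were further members of the 15 best scored. The highest score in the list labelled Sox9cKO, 357, belonged to a region 223 kb from Irx2, a homeobox factor, at chr13:72399993-72401738, which scored 69.98 in the list labelled Sox9null; it was singled out after its values were seen. A region of high score in one list could thus rank low in the other.

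The widest regions were not the best scored. The widest, 3176 bp inside Sytl3, a synaptotagmin-like protein of vesicle transport, scored 55.1 and 81.0. One of 3086 bp inside Cald1, the actin-binding protein caldesmon, scored 202 and 69.7. The others were near 1500009L16Rik (2716 bp), Sertad4 (2674 bp) and Brip1 (2649 bp), and the last scored 113 and 261.

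The rule's lower edge was the limit of the peak caller, and regions sat on either side of it by small margins. The lowest scores inside the rule were 50.1 for a region inside Pknox2, 50.2 for regions at Fam107a and near A530021J07Rik and 50.3 for one inside Spg21, each by its Sox9null score, and 50.25 for one inside Enox1 by its Sox9cKO score. Just outside it lay a region near C1qtnf1 with a control E12.5 score of 50.04 beside 83.7 and 94.2, and one near Cntn4 with a control E11.5 score of 50.08 beside 86.4 and 261. Of the 22098 regions present in both deficient lists and in any control list, the best control score was under 60 in 235 and under 70 in 434. Had these control peaks scored under the caller's limit, their regions would have been counted among the 570.

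The regions stood mostly at a distance from the ends of protein-coding genes, though 47.7% of them overlapped the body of such a gene. Within 1 kb of an end of a protein-coding gene lay 33 of the 570 (5.79%, Wilson 95% interval 4.15 to 8.02), against 25.4% of the union and 49.5% of the regions in all 4 lists. Beyond 20 kb lay 355 (62.3%, interval 58.2 to 66.2), against 48.1% of the union, and beyond 100 kb lay 123 (21.6%), against 17.2%. The median gap to a gene end was 37.2 kb, compared with 17.9 kb over the union and 1.25 kb over the regions in all 4 lists. The mirror class differed little, with 6.80% within 1 kb, 63.0% beyond 20 kb and a median of 33.7 kb. Distance from gene ends therefore set the 570 regions apart from regions in all lists and not from the mirror class. Other classes found in just 2 lists had 43.4% to 75.04% beyond 20 kb. With genes of every kind, 33.9% of the 570 regions lay beyond 20 kb of a gene end.

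**Figure D2:**
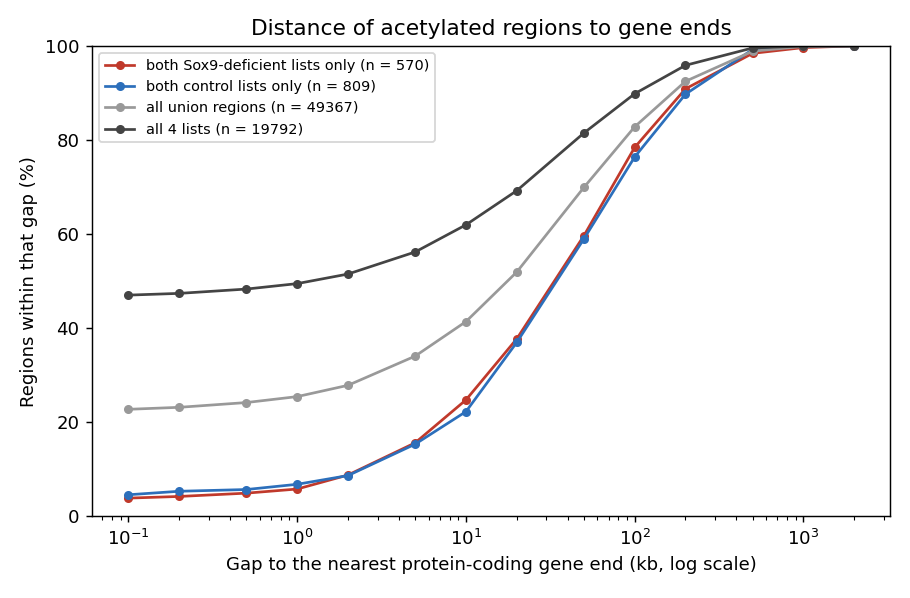
Cumulative share of regions (vertical axis, %) with a gap to the nearest protein-coding gene end up to the distance on the horizontal axis (kb, log scale) for the 570 regions, the 809 regions of both control lists only, the 19792 regions of all 4 lists and the whole union. The curves of the first 2 classes run together, with medians of 37.2 and 33.7 kb, far below that of the regions in all 4 lists.

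In relation to gene bodies, 272 of the 570 regions (47.7%) overlapped a protein-coding gene, against 62.3% of the union and 55.4% of the mirror class. Regions inside a gene and over 1 kb from its ends numbered 244, and 293 (51.4%) were between genes and over 1 kb from any gene end. The gene table gives no exons or strand, so introns, exons and start sites are not separated in these counts. The 570 regions had 518 different nearest genes, of which 470 were nearest to 1 region, 44 to 2 and 4 to 3.

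At gene ends, the 20 best scored regions were spread over genes of many functions. After Gpr176 came Cyp2u1, a cytochrome P450 (86.0 and 258), Ush1c, a scaffold protein of hair cell stereocilia (127 and 138), Apol6, an apolipoprotein L (129 and 113), and Smug1, a uracil-DNA glycosylase (59.5 and 231). Drp2, a dystrophin-related protein on the X chromosome (95.8 and 109), Mark2, a polarity kinase (76.7 and 139), Fbxo24, Dact3, an inhibitor of Wnt signalling (69.2 and 139.6), and Jam2, a junctional adhesion molecule (57.3 and 172), followed. The rest were Rasef (55.2 and 160.06), Gm52140, Lrrc15 (76.8 and 88.3), Cdkl3, Plcd3, a phospholipase C (63.5 and 108), Pla2g1b, Fam107a, Rnf14, Hmga1b and Adgrf5 (64.7 and 88.8). Hmga1b is nearly identical to Hmga1, so reads may have been placed at either gene and its value is uncertain.

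Of these genes, Rasef, Drp2 and Adgrf5 had no control peak in the gene or within 20 kb. Peaks over the gene and 20 kb on each side covered 0, 0, 0.776 and 1.12 kb at Rasef, 0, 0, 1.06 and 1.11 kb at Drp2 and 0, 0, 0.973 and 1.66 kb at Adgrf5. Without the regions, Rasef and Drp2 had no peak in either deficient list, and Adgrf5 had 0 and 0.642 kb. At Gpr176 the covered lengths were 1.81, 1.71, 3.25 and 2.77 kb, and without the regions the deficient lists had 1.61 and 1.60 kb, below both controls. At Lrrc15 they were 3.14, 2.85, 6.99 and 5.73 kb, and 5.56 and 4.16 kb without the regions, above both controls. Over 21883 protein-coding genes, 25 had no peak in either control list and a peak in both deficient lists, and 18 of them had one of the 570 regions within 20 kb. Besides Rasef, Drp2 and Adgrf5 these included Tac1, the precursor of substance P, Cacna1b, a neuronal calcium channel subunit, Cldn16, a claudin, and B3galt2, a galactosyltransferase, named after their values were seen. The reverse, a peak in both control lists and none in either deficient list, held for 50 genes. Since a gene counts here only when the same lists hold or lack a peak, the 18 follow from the rule.

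The regions lay close to chromatin that controls carried too. The nearest control peak was a median of 6.49 kb away (lowest 5 bp, highest 758 kb). It was within 1 kb for 98 regions (17.2%), within 5 kb for 246 (43.2%) and within 20 kb for 430 (75.4%), and beyond 100 kb for 22. In the mirror class, the nearest deficient peak was a median of 7.57 kb away, with 13.6% within 1 kb, 40.2% within 5 kb and 71.4% within 20 kb. The smallest gaps were 5 bp near Slc10a2, the ileal bile acid transporter, 8 bp near Eef2k, a kinase of elongation factor 2, and 24 bp at Cmss1. After the region far from Tenm2, the largest were 533 kb near Hace1, a ubiquitin ligase, and 266 kb near Pgk2, a testis phosphoglycerate kinase.

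**Figure D3:**
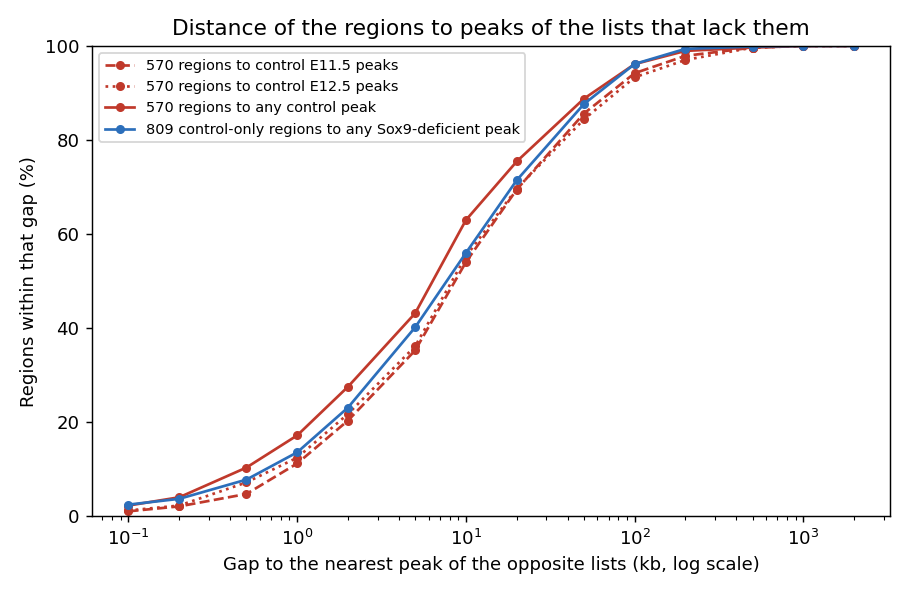
Cumulative share of regions (vertical axis, %) whose nearest peak in the opposite pair of lists lies within the distance on the horizontal axis (kb, log scale), for the 570 regions against the E11.5 control (dashed), the E12.5 control (dotted) or either (solid) and the 809 regions of both control lists only against the deficient lists. The solid curves run close together, with medians of 6.49 and 7.57 kb.

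Neighbouring regions resembled those of the mirror class by the first count below and less so by the second. At least 1 of the next union regions on either side was present in all 4 lists for 354 of the 570 (62.1%), and for 62.2% of the mirror class. Both were for 107 (18.8%) of the 570 and for 12.48% of the mirror class. Within 50 kb on each side of the 570 regions, leaving out the region, the median length covered was 4.13 kb by E11.5 control peaks, 5.46 kb by E12.5 control peaks, and 5.01 and 5.02 kb by peaks of the lists labelled Sox9null and Sox9cKO. Both deficient lists covered more than both controls around 68 regions (11.9%; union 10.8%) and less around 33 (5.79%; union 6.22%). These shares are near the background, so the flanks of the 570 regions as a group were covered much as those of any union region. No list had a peak in the flanks of 44 regions (7.72%).

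Clustering was sparse. Another of the 570 regions lay within 100 kb of 79 regions (13.9%, Wilson 95% interval 11.3 to 16.9), and the same held for 16.9% of the mirror class among its own. There were 35 groups of 2 and 3 groups of 3 regions, and 491 regions stood alone. Of the union regions next to one of the 570, 1.75% were themselves among the 570, against 1.15% of the union. For the mirror class these shares were 1.73% and 1.64%, and for regions found just in the list labelled Sox9cKO and the E11.5 control 10.6% and 6.45%.

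Of the groups of 3, one lay at Fam13a and one around Crabp1. At Fam13a the regions spanned chr6:58932364-58966058, scored 66.4 and 76.0, 56.5 and 120.1, and 85.0 and 66.4, and lay 29.8 to 57.6 kb from control peaks. Peaks over Fam13a and 20 kb on each side covered 1.71, 1.31, 4.64 and 4.04 kb. Without the regions the deficient lists had 1.59 and 1.64 kb, between the controls. Around Crabp1, which encodes a cytoplasmic carrier of retinoic acid, the regions at chr9:54738375-54811254 scored 73.1 and 127, 65.7 and 59.5, and 57.7 and 61.5. Covered lengths at Crabp1 were 7.19, 8.92, 10.6 and 9.31 kb, and 9.26 and 8.53 kb in the deficient lists without the regions, on either side of the E12.5 control.

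With gaps of up to 250 kb allowed, the largest run held 5 regions over 470 kb at chr16:30083294-30553684, chosen after its values were seen. It passed Hes1, a Notch target and repressor, Cpn2, Lrrc15 and Tmem44, and its scores ran from 52.0 to 123 and from 53.8 to 273. At Tmem44 peaks covered 3.36, 3.75, 6.34 and 6.58 kb, and 3.48 and 4.27 kb in the deficient lists without the regions, the first between the controls and the second above both. Only the region near Tmem44 at chr16:30498948-30500665 (123 and 273) had scores of 100 or more in both lists.

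Sox9 was among the 4 genes nearest to 3 regions each, with Bbs9, Clint1 and Fam13a. Around Sox9, regions lay 363 kb (chr11:112417725-112419002, 116 and 51.2) and 255 kb (chr11:112526044-112527080, 69.4 and 78.7) on the side of lower coordinates and 97.5 kb (chr11:112885284-112886298, 67.9 and 53.5) on the other. Sox9 is flanked by long gene-poor stretches that hold its distal enhancers, so distant regions have no nearer protein-coding gene. Each score pair included a value under 80, and covered length at Sox9 itself was 7.80, 8.77, 7.76 and 6.90 kb, lowest in the list labelled Sox9cKO. The regions of Bbs9, a Bardet-Biedl syndrome protein, scored 60.2 or less in the list labelled Sox9cKO in 2 of 3 cases, and the best of those near Clint1, a clathrin adaptor, scored 79.9 and 148.

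The share of union regions that belonged to the 570 varied by chromosome. It was highest on chromosome 10 (42 of 2545, 1.65%) and chromosome 2 (62 of 3968, 1.56%). Among the autosomes it was lowest on chromosome 15 (9 of 1899, 0.474%, Wilson 95% interval 0.250 to 0.898), where the mirror class took 1.95%. On X 3 of 839 regions qualified (0.358%, interval 0.122 to 1.05), near Gpkow, Pls3, which encodes an actin-bundling plastin, and Drp2. On Y none of 19 did. The mirror class was low on X too, with 5 regions (0.596%), while 59.7% of union regions on X were in all 4 lists. The sex of the embryos was not found in the sources used here.

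**Figure D4:**
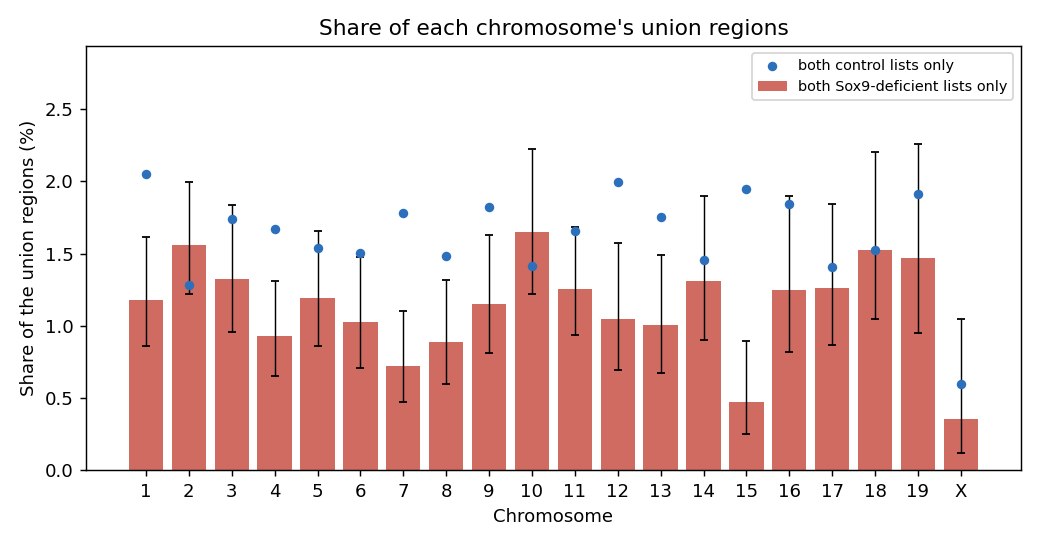
Share of the union regions on each chromosome (vertical axis, %) that belong to the 570 regions (with Wilson 95% intervals) and to the 809 regions of both control lists only. Chromosomes 10 and 2 lie highest for the 570 regions at 1.65% and 1.56%, and chromosomes 15 and X lie low at 0.474% and 0.358%.

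For genes with known roles, the count was of genes with one of the 570 regions within 100 kb of the gene body. Such a region can have another nearest gene, under which it may be named above, and can be counted for more than 1 listed gene. Over all 21883 protein-coding genes this was 5.80% (1269 genes), and 7.95% for the mirror class. Genes differ in how many union regions lie near them, so the share of those regions that were among the 570 is given too. Over all protein-coding genes it was 1.11% of 43830 nearby regions. The mirror class is larger, and its share of the same regions was 1.59%, the value to set beside its shares below. Of 487 listed genes 57 (11.7%) had such a region, and 60 of 4914 regions near them (1.22%) were among the 570. By that measure the listed genes were near the background. The lists are limb, cartilage and cell type genes and each interval below is wide.

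**Figure D5:**
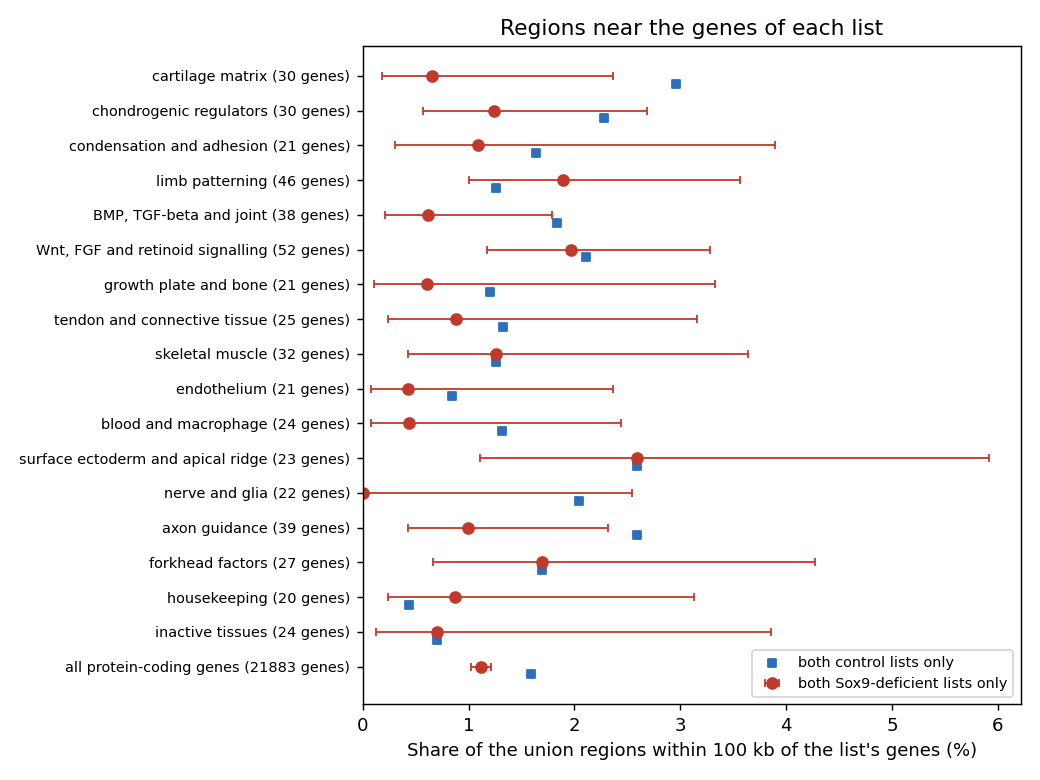
Share of the union regions within 100 kb of each list's genes (horizontal axis, %) that belong to the 570 regions (circles, Wilson 95% intervals) or to the 809 regions of both control lists only (squares). The intervals include the 1.11% found over all protein-coding genes, except that of Wnt, FGF and retinoid signalling, which starts at 1.18%. The cartilage matrix list has 0.658% for the 570 regions beside 2.96% for the mirror class, whose share over all protein-coding genes is 1.59%.

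At cartilage genes the shares of nearby regions had intervals that held the 1.11% over all protein-coding genes. Among 30 genes of cartilage matrix, 2 (6.67%) had one: Cspg4, a chondroitin sulfate proteoglycan, at 23.8 kb (61.4 and 172), and Col27a1, a fibrillar collagen of cartilage, at 94.7 kb (64.6 and 89.2). They were 2 of 304 nearby union regions (0.658%, Wilson 95% interval 0.181 to 2.37), where the mirror class had 9 (2.96%). Among 30 chondrogenic regulators, 6 had one (interval of the share 9.51% to 37.3%), and the regions were 6 of 483 (1.24%; mirror class 2.28%). These were Sox11, Nfib, a nuclear factor I gene (130 and 111.5), Zfp521, a zinc finger repressor expressed in skeletal cells (76.9 and 112), Arid5b, a SOX9 coactivator (68.5 and 60.1), Maf (56.2 and 70.4) and Sox9. Of 21 genes of condensation and adhesion 2 had one, with 1.09% of nearby regions (mirror class 1.64%). They were Fn1, fibronectin (51.4 and 148), and Ncam1, a neural cell adhesion molecule of condensing mesenchyme (61.9 and 108).

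Limb patterning and signalling lists differed among themselves, and no difference between lists was tested. Among 46 patterning genes 7 had one of the regions, 9 of 475 nearby (1.89%, interval 1 to 3.56; mirror class 1.26%). Beside Fmn1 these were Prrx2, a homeobox gene of limb mesenchyme (107 and 115), Tbx4, the hindlimb T-box factor (181 and 58.3 at 18.7 kb, 113 and 261 at 98.5 kb), its neighbour Tbx2, Gli2, an effector of hedgehog signalling (68.0 and 86.1), Etv4, an FGF-responsive ETS factor (52.1 and 96.6), and Meis2, a proximal limb homeobox factor (64.4 and 58.7). The region at 18.7 kb from Tbx4 was counted for Tbx2 as well, and that at 98.5 kb is the wide region named above for Brip1. At Prrx2 peaks covered 30.1, 40.8, 44.7 and 40.5 kb, and 43.3 and 39.4 kb in the deficient lists without the region.

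Of 52 genes of Wnt, FGF and retinoid signalling 12 (23.1%) had one of the regions, 14 of 710 nearby (1.97%, interval 1.18 to 3.28; mirror class 2.11%). Among ligands these were Wnt11, a noncanonical Wnt (114.85 and 139.87 at 13.6 kb), Fgf8, a ligand of the apical ridge (101 and 85.0), and Fgf9 (50.6 and 53.6). Among inhibitors they were Dkk2 (78.3 and 96.0), Dkk1 (55.9 and 94.8), Sfrp1 (73.4 and 56.5) and Spry4, which restrains FGF signalling (87.6 and 112). Among transcription factors and receptors they were Lef1 (86.0 and 258) and Tcf7l2 (77.8 and 100.03) of the Wnt pathway, and the retinoid receptors Rarb (114.77 and 67.1) and Rxra (59.2 and 58.0). The region counted for Lef1 lay 78.0 kb away and is the one named above at the end of Cyp2u1. That of Fgf8 lay at 79.8 kb, and that of Rxra, at 69.0 kb, was counted for Col5a1 as well. Crabp1 completed the list. At Wnt11 peaks covered 8.88, 10.3, 10.5 and 10.7 kb, and 8.97 and 9.68 kb in the deficient lists without the region, between the controls. Of 38 genes of BMP, TGF-beta and joint formation, Gdf11 and Acvr1 had one, 3 of 490 nearby (0.612%; mirror class 1.84%).

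Genes of other cell types were covered unevenly between the lists, and whether that bears on the 570 regions was not tested. Of 23 genes of surface ectoderm and apical ridge 6 had one, from 5 regions among 193 (2.59%; mirror class 2.59%): Cdh1, the epithelial cadherin (97.7 and 80.7), Dlx1 and Dlx2, which share a region (54.2 and 144.5), Sp9 (71.3 and 82.2), Trp63 (54.3 and 71.2) and Perp (52.5 and 50.4). Peaks over these 23 genes and 20 kb on each side summed to 80.7 kb (E11.5 control), 87.7 kb (E12.5 control), 68.4 kb (Sox9null list) and 107 kb (Sox9cKO list). A peak was present at 20 and 18 of the genes in the controls, at 16 in the Sox9null list and at 21 in the Sox9cKO list. Krt14 had none in any list, Krt5 had none in either deficient list, and Krt15 and Grhl1 had one in the Sox9cKO list alone.

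Of 32 muscle genes Lbx1, Mymk and Chrna1 had one of the regions, with 1.26% of nearby regions (mirror class 1.26%). Over the 32 genes the sums in the same order were 122, 142, 130 and 144 kb. A peak was present at 24, 18, 18 and 25 of them, so sums and counts of genes did not run together. Myl1, Actc1, Myod1, Acta1, Tcf21 and Myh8 had no peak in any list. Of 21 endothelial genes Pecam1 had one, with 0.424% of nearby regions (mirror class 0.847%). The sums were 97.8, 132, 104 and 118 kb, with peaks at 18, 14, 12 and 17 genes and with Sox17 and Emcn at 0 in every list. Of 24 genes of blood and macrophages Nfe2 had one, with 0.439% (mirror class 1.32%). The sums were 63.8, 58.6, 52.1 and 72.6 kb, with peaks at 16, 12, 12 and 18 genes. C1qa, Gata2, Hbb-bs, Lyz2 and Adgre1 were at 0 in every list. None of 147 regions near 22 genes of nerve and glia was among the 570, against 3 of the mirror class. The sums were 39.8, 39.2, 34.8 and 44.4 kb, with peaks at 14, 11, 11 and 15 genes. Neurod1, Neurog1, Neurog2, Foxd3 and Pou4f1 were among the genes at 0 in every list.

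The remaining lists had from 1 to 5 genes each. Axon guidance had 5 of 39, led by Slit3, then Efna1, an ephrin (75.8 and 168), Plxna4, a semaphorin coreceptor (79.6 and 145), Plxnb1 (97.8 and 66.6) and Sema3a, with 0.998% of nearby regions against 2.59% in the mirror class. Forkhead factors had 4 of 27, with Foxo1 (113 and 50.9), Foxm1, Foxq1 and Foxp4, and 1.69% of nearby regions, as in the mirror class (1.69%). Tendon and connective tissue had 2 of 25 genes, with Col5a1 (59.2 and 58.0) among them, and 0.881% of nearby regions (mirror class 1.32%). Growth plate and bone had Alpl, the alkaline phosphatase of mineralizing cells, of 21, with 0.602% (mirror class 1.20%). Housekeeping genes had Actb and Rplp0 of 20, with 0.873% (mirror class 0.437%). Genes of tissues inactive in limb had Apoa1 of 24, with 0.699% (mirror class 0.699%).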

How the data were processed

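H3K27ac ChIP-seq peak lists of 4 mouse limb bud samples were used, 1 library a group, and the other 20 samples were not analysed here. The deposited lists give each peak's position and a score, which is the authors' own, in a scale that no header states. The submitters' processing notes name mm10 as the build, with CASAVA 1.8 and deepTools, and peak names in the lists carry the name MACS. Settings, aligner and use of inputs: not given in the sources used here. There is 1 list per sample.

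Peaks sharing at least 1 bp were merged, and a region counted as present in a list when a peak of it overlapped. Gaps were measured to ends of 21883 protein-coding genes of RefSeq (GRCm38.p6, the same assembly), and 487 of 488 listed symbols matched. Percentiles are ranks of the best peak within its list. Wilson 95% intervals were given, and no p-value was computed. The tools were scipy 1.17.1, pandas 2.3.3 and numpy 2.4.6 under Python 3.11.15, with matplotlib 3.10.9 for plots, and the counting was tested on simulated lists. The members and gene lists were chosen with earlier results of these data known. Named were the 15 best scored regions, the 5 widest, the 20 best at gene ends, groups of 3, up to 4 genes a list, the 5 genes nearest to most regions (4 had 3 regions, and no other was taken because 44 genes tied), the extremes of the gap to control peaks, and regions kept in the upper 50%. Other names were chosen after their values were seen. Alternatives changed the score limit, merging, overlap, gene set, windows and lists used. A few genes and regions that this rule names are not reported here.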

Additional observations from a re-analysis of the deposited data

How the results depend on the processing

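No paired analysis was possible because each group has 1 library. The region count rested on low scores: with the upper 50% of each list it was 84, of which 1 was shared with the 570 and 82 had a lower scored control peak. There 53.6% lay beyond 20 kb of gene ends, median percentiles were 54.4 and 56.7 (lists labelled Sox9null and Sox9cKO), 2.38% had another within 100 kb, the control gap was 19.4 kb and 1.03% of listed genes had one. With the same number of top peaks the percentiles were 17.1 and 35.8 and the gap 7.87 kb, with 585 regions that overlapped 299 of the 570. Dropping scores under 60 or 100, chosen after seeing the data, gave 487 and 274 regions, of which 156 and 227 had a lower scored control peak and which overlapped 330 and 45 of the 570, with percentiles of 19.3 and 30.2, then 34.4 and 43.2, gaps of 7.55 and 11.1 kb, and 7.80% and 7.39% of listed genes. Merging peaks up to 500 bp apart gave 11.1% clustered and a gap of 7.78 kb. Exchanging the deficient lists exchanged the percentiles (24.1 and 13.1). With genes of every kind 33.9% lay beyond 20 kb. Clustering was 7.89% within 50 kb and 23.2% within 250 kb. Listed genes with a region were 4.52% within 20 kb and 7.39% as nearest gene.

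Leaving out 1 list at a time loosens the rule itself: regions numbered 1442 to 6685, 52.8% to 70.2% lay beyond 20 kb, percentiles were 11.6 to 25.03 and 16.2 to 34.3, clustering 26.9% to 64.7%, the gap 5.52 to 10.2 kb and listed genes 24.2% to 65.7%. The count was 1442 without the E11.5 control, 2109 without the E12.5 control, 6685 without the list labelled Sox9null and 2227 without that labelled Sox9cKO. Autosomes alone (567 regions) and a 10% overlap (570) moved none of these values past their intervals. Of 221 values of genes per list under alternatives, 129 moved by over 1.5 times. Sequence windows at region centres were not run, since they need the genome. Apart from the loosened rule the cause of these shifts was not tested, and with 1 library a group and unknown depth the spread between embryos cannot be given.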
